A study of Homo sapiens with 32 samples.

Results

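Spheroids of EPC2 cells, human esophageal epithelium made immortal with telomerase, were compared at day 11 (D11) and day 3 (D3) of culture in Matrigel, a basement membrane gel. The D11 group holds 7 libraries of spheroids that never received interleukin 13 (IL-13), and the D3 group holds 9 libraries, so 16 of the 32 libraries of the series enter the comparison. They were chosen by their labelled day and treatment alone. In both groups 40000 cells were seeded per 20 µl droplet, under 1 ml of serum-free medium for keratinocytes that held 0.6 mM CaCl2, and the medium held 10 µM of the ROCK inhibitor Y27632 up to day 3. The D11 spheroids were then kept without the inhibitor, with fresh medium every other day, so 8 more days of growth and the withdrawal of the inhibitor cannot be told apart. A single cell line was used. The labels give each library a batch, 1 or 2, and the study reports 2 independent experiments. Batch 1 gave 4 of the D11 and 4 of the D3 libraries, and batch 2 gave 3 of the D11 and 5 of the D3 libraries. The other libraries are 10 of flat monolayers at day 0 (D0), used below as the starting level, and 6 of D11 spheroids with IL-13.

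Stratified squamous epithelium renews itself from a basal layer of dividing cells that hold on to the basement membrane. Cells that leave this layer stop dividing, change their keratins, tighten their desmosomes and build a cornified envelope from involucrin, small proline-rich and late cornified envelope proteins. The esophagus normally keeps KRT4 and KRT13 in its suprabasal layers and does not form the granular and cornified layers of skin.

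Values were TPM, a share of each library corrected for transcript length, so the number of reads behind a value is unknown. On the first principal component of the 16 libraries, which held 78.6% of the variance, D11 libraries lay between 47.3 and 61.7 and D3 libraries between -61.6 and -23.5. The D3 libraries fell apart on it. Libraries 1, 3, 4, 5 and 6 lay between -30.9 and -23.5, and libraries 2, 7, 8 and 9 between -61.6 and -50.4. By its label library 4 belongs to batch 1 with libraries 2, 8 and 9, and library 7 to batch 2 with libraries 1, 3, 5 and 6, so both lay with the other batch. They were kept as labelled, and the D11 against D3 tests of genes and lists, the shares and the interaction with batch were also computed without them. Without them 30 of the 30 leading genes kept their call, with shifts of at most 0.29 on the log2 scale. These genes were chosen for large changes of the same sign in both batches, so their calls were likely to stay. Of all 3891 genes called higher and 4174 called lower at D11, 77 and 172 lost their call without these libraries. No count in 42 gene lists moved by more than 2 genes. Of the 10 genes listed as defining esophageal squamous epithelium, 9 passed the filter. The list took 7.82 to 11.5% of the TPM at D11 and 6.76 to 10.6% at D3, mostly from KRT5, KRT14 and KRT6A. From D3 to D11, 2 of the 9 rose, 5 fell and 2 did not pass the limma test described below. With mitochondrial genes removed 2 rose and 7 fell. The members KRT4 and KRT13 stood at 12.3 to 17.7 TPM and 8.3 to 16.2 TPM at D11. Markers of other cell types were few. The fibroblast list passed the filter with COL1A1 only, and COL1A2, COL3A1, PDGFRB and FAP were among its members listed at 0 in every library of both groups. It summed to 58.2 to 78.2 TPM at D11, against 8.1 to 30.4 TPM at D3. The immune and endothelial list summed to 521.9 to 588.2 TPM at D11 and to 221.7 to 267.4 TPM at D3, mostly from CD68 and CSF1R, with PECAM1, VWF and KIT at 0 throughout, and the melanocyte and Langerhans cell list stayed at or below 1.7 TPM. The columnar, goblet and ciliated list summed to 758.6 to 1013.7 TPM at D11 and to 1963 to 3412.3 TPM at D3, mostly from KRT19.

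Mitochondrially encoded transcripts took a far smaller share of the RNA at D11. They made up 14.8, 22.3 and 27.9% of the TPM at D11 (lowest, median and highest library), against 39.1, 45.8 and 57.1% at D3. The groups did not overlap, and the difference of -25.8 percentage points had an exact two-sided permutation p of 0.00017, the smallest that 7 against 9 libraries allow. Within batch 1 the difference was -27.3 points (exact permutation p = 0.029), and within batch 2 it was -25.8 points (exact permutation p = 0.036), each the smallest p those numbers allow. Keratin transcripts made up 12.7, 15.5 and 19.0% of the TPM at D11, against 7.48, 11.8 and 12.7% at D3, a difference of 5.52 points (exact permutation p = 0.00017). Of the TPM that was not mitochondrial, keratins held 20.2 ± 1.80% at D11 and 19.5 ± 2.11% at D3 (SD, n = 7 and 9, exact permutation p = 0.5), so this rise was not seen on that scale. The epidermal differentiation complex, the cluster on chromosome 1 that holds most envelope genes, took 8.40 ± 1.26% at D11 and 2.04 ± 0.777% at D3 (SD, n = 7 and 9, exact permutation p = 0.00017). It remained higher among non-mitochondrial TPM, at 10.7 ± 1.17% at D11 and 3.80 ± 1.03% at D3 (SD, n = 7 and 9, exact permutation p = 0.00017).

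**Figure D1:**
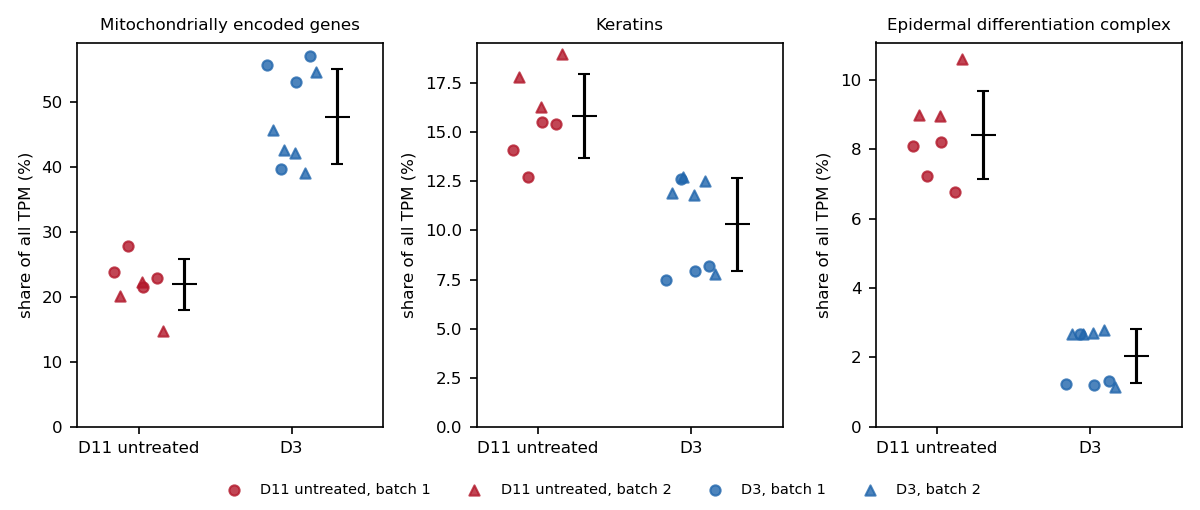
Share of all TPM (%) held by mitochondrially encoded genes, keratins and the epidermal differentiation complex, with 1 point per library, the marker shape for the batch, and the mean with its SD as a black bar. The 7 D11 libraries lie at 14.8 to 27.9% for mitochondrial genes, all below the 9 D3 libraries, and at 6.75 to 10.6% for the epidermal differentiation complex, all above them.

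Because TPM values share a fixed total, the fall of the mitochondrial share lifts all other genes. Among the 11036 genes that entered the limma test, 3891 (35.3%) were higher at D11 and 4174 (37.8%) were lower, 8065 (73.1%) together. At 2-fold or more these were 1008 (9.13%) and 881 (7.98%). The median change of all genes was -0.02 on the log2 scale. With the 13 mitochondrially encoded genes removed and the rest rescaled to the same total, the changes shifted by a median of -0.57, and 1568 of 11023 genes (14.2%) were higher and 7684 (69.7%) lower. Below, "after rescaling" means this second table. Directions that turn with it are named where they stand. List counts below are to be read beside the shares of all genes given here. Other scalings stayed close to the counts as deposited. Median-of-ratios scaling, which divides each library by the median ratio of its genes to their geometric mean, gave 4222 higher and 4097 lower. Quantile normalization gave 3918 higher and 4387 lower. The D11 libraries all lay above the D3 libraries for 2241 genes (20.3%) and all below for 2184 (19.8%). In the paragraphs that follow, levels are the TPM of the lowest, median and highest library of each group. Changes are D11 minus D3 differences of log2(TPM + 1) with their SE, which understate the change of low genes, and n is 7 D11 and 9 D3 libraries. No source says that libraries came from separate cultures within a batch, so p-values measure the spread between libraries, which may be technical. Fewer cells of a type and less RNA per cell cannot be told apart in these bulk samples.

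The largest rises were led by envelope genes and protease inhibitors. Late cornified envelope protein LCE3E (chr1:152565654-152566772, hg38, gene model of GENCODE release 29) measured 1001, 1286 and 3487 TPM at D11, against 0, 16.2 and 31.6 TPM at D3 (log2 change 8.23 ± 0.72, limma adjusted p = 2.9e-08). Its neighbour LCE3D measured 1584, 2218 and 7099 TPM at D11, against 0, 52.9 and 112 TPM at D3 (log2 change 7.54 ± 0.84, limma adjusted p = 4.6e-07). LCE3A, another member of the same group, measured 421, 712 and 1567 TPM at D11, against 0, 18.1 and 45.3 TPM at D3 (log2 change 6.80 ± 0.8, limma adjusted p = 9.4e-07). For all of them the D3 libraries ranged from 0 or close to it up to 31.6, 112 and 45.3 TPM, and every D11 library lay above every D3 library. SPINK7 (chr5:148312419-148315922), an inhibitor of kallikrein-type proteases of the esophagus, measured 165, 248 and 387 TPM at D11, against 0, 1.7 and 3.6 TPM at D3 (log2 change 6.98 ± 0.24, limma adjusted p = 3.8e-13), and its SE was among the smallest of the rises. CST6, a cystatin that restrains cysteine proteases in cornification, measured 70.9, 118 and 165 TPM at D11, against 0, 1.2 and 3.0 TPM at D3 (log2 change 5.98 ± 0.23, limma adjusted p = 1.5e-12). WFDC12, a small inhibitor with a whey acidic protein domain, measured 144, 209.9 and 782 TPM at D11, against 0, 13.8 and 24.8 TPM at D3 (log2 change 5.80 ± 0.6, limma adjusted p = 2e-07). The secreted Ly6-type protein SLURP1 measured 818, 1039 and 1219 TPM at D11, against 1.5, 27.4 and 56.4 TPM at D3 (log2 change 6.24 ± 0.62, limma adjusted p = 1.2e-07).

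The other 8 of the 15 leading rises were CRCT1, SPRR2D, KPRP, DEPP1, SPRR2B, HOPX, CLIC3 and SPRR3, with changes down to 5.24. DEPP1, a FOXO target that is not part of cornification, measured 86.3, 114 and 198 TPM at D11, against 0.8, 1.7 and 6.7 TPM at D3 (log2 change 5.50 ± 0.24, limma adjusted p = 9e-12), with D3 library 6 at 6.7 TPM apart from the other D3 libraries. CLIC3, an intracellular chloride channel protein, measured 441, 512 and 594 TPM at D11, against 2.2, 26.6 and 40.6 TPM at D3 (log2 change 5.28 ± 0.52, limma adjusted p = 1e-07). HOPX, a homeodomain protein without DNA binding of its own, measured 124, 157 and 177 TPM at D11, against 0.5, 6.0 and 8.6 TPM at D3 (log2 change 5.30 ± 0.39, limma adjusted p = 3.7e-09). All 15 leading rises had D11 libraries wholly above D3 libraries, and after rescaling each kept its direction and its call.

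The largest falls were led by genes of dividing cells. MKI67 (chr10:128096659-128126385), the antigen of the Ki-67 proliferation stain, measured 0.6, 1.1 and 1.4 TPM at D11, against 48.7, 58.1 and 118 TPM at D3 (log2 change -5.19 ± 0.18, limma adjusted p = 6e-13). CDC20, which activates the anaphase-promoting complex, measured 1.2, 3.4 and 4.6 TPM at D11, against 76, 99.6 and 198 TPM at D3 (log2 change -4.86 ± 0.23, limma adjusted p = 1.9e-11). No D11 library came near the D3 libraries. The mitotic kinesin KIF20A measured 0.4, 0.5 and 1.3 TPM at D11, against 31.3, 43.5 and 68.5 TPM at D3 (log2 change -4.82 ± 0.18, limma adjusted p = 1.3e-12), the decatenating enzyme TOP2A 1.0, 1.9 and 3.0 TPM at D11, against 33.4, 44.2 and 67.8 TPM at D3 (log2 change -4.03 ± 0.14, limma adjusted p = 3.8e-13). Cyclin B1, CCNB1, measured 1.8, 3.0 and 3.8 TPM at D11, against 37.4, 49.9 and 84 TPM at D3 (log2 change -3.91 ± 0.15, limma adjusted p = 1.7e-12). The kinetochore protein CENPF and the histone kinase HASPIN fell with them (-3.77 and -4.13), and HASPIN was listed at 0 in the median D11 library.

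Genes with other roles fell as far. GLUL (chr1:182381704-182392206), glutamine synthetase, measured 37.2, 42.2 and 46.7 TPM at D11, against 480.0, 575 and 698 TPM at D3 (log2 change -3.76 ± 0.089, limma adjusted p = 7.9e-15). The acute phase protein SAA1 measured 0.7, 1.2 and 2.5 TPM at D11, against 19.2, 72.4 and 86.9 TPM at D3 (log2 change -4.47 ± 0.29, limma adjusted p = 8.8e-10). ALDH3A1, an aldehyde dehydrogenase of surface epithelia, measured 0.3, 0.9 and 1.4 TPM at D11, against 26.6, 29.5 and 41.3 TPM at D3 (log2 change -4.10 ± 0.097, limma adjusted p = 7.9e-15). IGFBP6, a binding protein of insulin-like growth factors, measured 5.0, 7.0 and 7.9 TPM at D11, against 72.1, 97.3 and 145 TPM at D3 (log2 change -3.77 ± 0.12, limma adjusted p = 1.7e-13). The groups stood wholly apart for each of these, and D3 was the higher group. HSPE1, the mitochondrial co-chaperonin, measured 0, 0 and 4.1 TPM at D11, against 8.0, 19.9 and 28.6 TPM at D3 (log2 change -3.83 ± 0.35, limma adjusted p = 4.2e-08), with D11 library 7 the single D11 library clearly above 0. In monolayers HSPE1 also ranged widely, from 0 to 38.3 TPM. Its listed 0 values may be failed estimates, which was not tested, so the size of this fall is uncertain. Of the 15 leading falls, all kept their direction and call after rescaling.

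**Figure D2:**
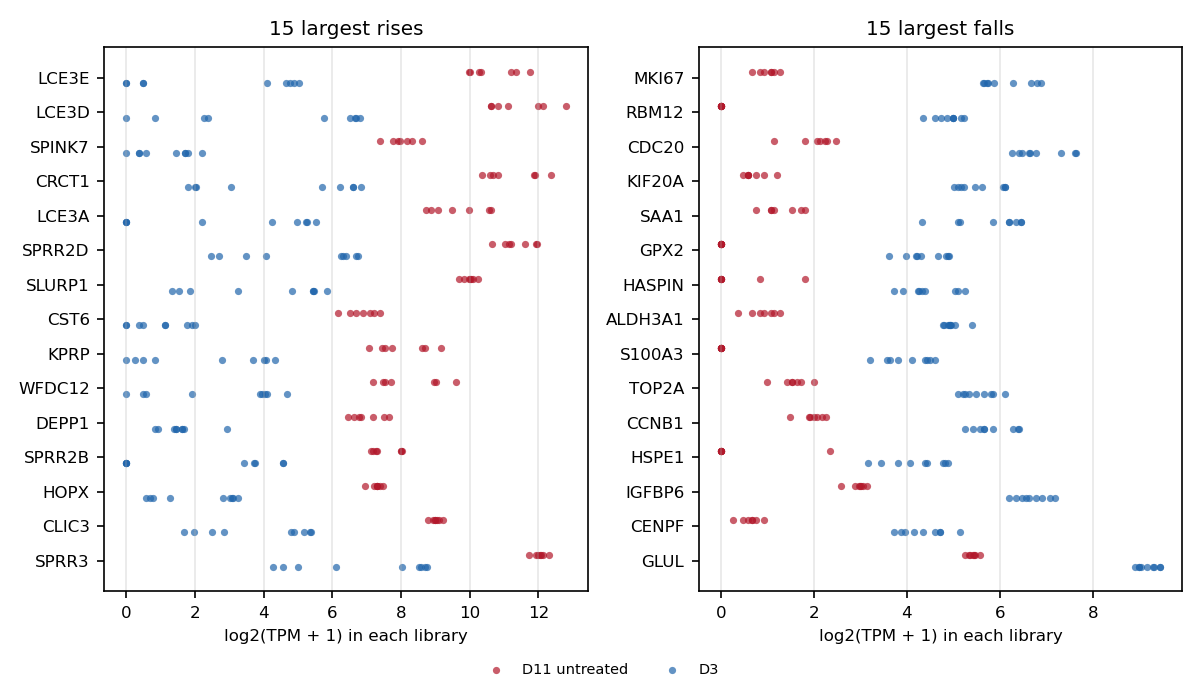
Level of the 15 genes with the largest rises (left) and the 15 with the largest falls (right) in each library as log2(TPM + 1), with D11 untreated libraries in red just above D3 libraries in blue. In all 30 genes the D11 libraries lie wholly on one side of the D3 libraries, and the D3 libraries of the envelope genes spread widely, as in LCE3E at 0 to 31.6 TPM.

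The promoters of the mitosis genes with the largest falls, MKI67 and CDC20, are shown because such promoters are known to carry a short element, TTTGAA, and CCAAT boxes through which they are silenced or driven with the cell cycle. The windows reach from 250 bases before the start to 50 after it (RefSeq, GRCh38.p14), MKI67 from chr10:128126374-128126673 on the minus strand and CDC20 from chr1:43358731-43359030 on the plus strand. They are written 5′ to 3′ along the gene, and capitals mark TTTGAA and CCAAT on either strand.
MKI67: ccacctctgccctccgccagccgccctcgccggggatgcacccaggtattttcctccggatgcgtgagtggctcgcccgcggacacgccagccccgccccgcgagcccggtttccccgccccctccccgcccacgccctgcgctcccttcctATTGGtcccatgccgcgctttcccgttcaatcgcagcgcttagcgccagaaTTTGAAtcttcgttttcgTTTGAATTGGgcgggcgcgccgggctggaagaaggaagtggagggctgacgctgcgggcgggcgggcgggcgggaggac
CDC20: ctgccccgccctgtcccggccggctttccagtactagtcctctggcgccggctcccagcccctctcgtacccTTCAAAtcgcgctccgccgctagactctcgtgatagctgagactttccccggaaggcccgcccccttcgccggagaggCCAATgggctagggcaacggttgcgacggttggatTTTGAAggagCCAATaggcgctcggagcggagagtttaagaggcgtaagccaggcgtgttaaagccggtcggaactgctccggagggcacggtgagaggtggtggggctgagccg
Each window held 2 matches of each motif, and in MKI67 the TTTGAA that starts 29 bases before the start overlaps the ATTGG after it. Of 27 mitosis promoters found in the RefSeq table by symbol, 19 (70.4%) held TTTGAA, against 15.4% of all 27305 promoter windows of the same length. CCAAT was found in 22 of them (81.5%), against 35.7% of all windows. Of the 31 promoters of DNA replication genes, 1 (3.23%) held TTTGAA and 19 (61.3%) held CCAAT. Matches are letters in a window and show neither binding nor a cause.

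Cell division genes fell nearly as a block. Of 34 mitosis genes tested, 1 rose, 33 fell and 0 missed the threshold. Their median log2 change was -2.65, and 0 rose and 33 fell after rescaling. For 33 of them the D11 libraries lay wholly below D3. The exception was securin, PTTG1, which inhibits separase until anaphase, at 35.3, 51.9 and 70.6 TPM at D11, against 33.7, 42.1 and 50.5 TPM at D3 (log2 change 0.32 ± 0.12, limma adjusted p = 0.024). Its call was lost without D11 library 4 (0.24) or 7 (0.28) and without D3 libraries 4 and 7 (0.30), and its change was -0.28 after rescaling. It was also lost in batch 1 alone (0.04), under quantile normalization (0.16) and with all 26 untreated libraries in the fit (0.27). Of 36 DNA replication and G1/S genes, 0 rose, 34 fell and 2 missed the threshold, with a median log2 change of -1.45, and 0 rose and 36 fell after rescaling. The flap endonuclease FEN1 measured 0.7, 2.1 and 3.2 TPM at D11, against 9.0, 22.9 and 49.2 TPM at D3 (log2 change -3.18 ± 0.31, limma adjusted p = 9.7e-08), and the helicase subunit MCM2 measured 1.0, 1.4 and 1.7 TPM at D11, against 10.1, 12.1 and 23.4 TPM at D3 (log2 change -2.73 ± 0.15, limma adjusted p = 1.2e-10). Both were lower in every D11 library. FEN1 overlaps FADS2 on the same strand, so reads of these genes may be shared.

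Genes listed for cell cycle exit and p53 targets moved in both directions. Of 17 cell cycle exit genes, 9 rose, 6 fell and 2 missed the threshold. The median log2 change of the list was 0.26, and 6 rose and 9 fell after rescaling. The antiproliferative factor BTG1 measured 431, 447 and 580.3 TPM at D11, against 58.6, 90.4 and 139 TPM at D3 (log2 change 2.48 ± 0.17, limma adjusted p = 1.1e-09), and the INK4 inhibitor CDKN2D measured 83, 88.6 and 94.6 TPM at D11, against 11.4, 20.4 and 25.8 TPM at D3 (log2 change 2.28 ± 0.15, limma adjusted p = 1.1e-09). Cyclin D1, CCND1, which drives entry into the cycle, measured 20.3, 21.8 and 23.4 TPM at D11, against 73, 84.3 and 98.6 TPM at D3 (log2 change -1.90 ± 0.062, limma adjusted p = 3.1e-13). Its fall is among the 6 of the exit list, which thus combines members of opposite roles, so the counts do not measure exit. The senescence-linked inhibitor CDKN2A was low in both groups and lower at D11, at 0.2, 0.2 and 0.7 TPM at D11, against 1.7, 2.2 and 3.0 TPM at D3 (log2 change -1.31 ± 0.088, limma adjusted p = 1.1e-09). Of 20 p53 targets, 9 rose, 8 fell and 3 missed the threshold. Over these genes the median log2 change was -0.02, and 4 rose and 12 fell after rescaling. The p53 counts were not far from the shares of all genes. Those were 35.3% higher and 37.8% lower, and 14.2% and 69.7% after rescaling. GDF15, a stress cytokine, measured 1.8, 11.7 and 22 TPM at D11, against 0.2, 0.6 and 1.5 TPM at D3 (log2 change 2.32 ± 0.3, limma adjusted p = 3.2e-06), and its rise was 1.32 in batch 2 and 3.27 in batch 1 when fitted alone. The translesion polymerase POLH measured 1.6, 2.6 and 3.3 TPM at D11, against 4.4, 5.3 and 6.1 TPM at D3 (log2 change -0.83 ± 0.093, limma adjusted p = 5.4e-07) and the death receptor FAS 1.6, 2.1 and 3.1 TPM at D11, against 2.1, 3.0 and 4.3 TPM at D3 (log2 change -0.38 ± 0.1, limma adjusted p = 0.0029), with overlap of the groups for FAS only.

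In the epidermal differentiation complex (chr1:151982915-153632039, hg38), 42 of the 49 tested genes rose, 3 fell and 4 did not pass, with a median log2 change of 2.98. After rescaling 38 rose and 7 fell. The genes that fell as deposited were HRNR, S100A2 and S100A3, and apart from HRNR they lie at the end of the cluster that holds S100A1. In the stretch from FLG to S100A7 every tested gene rose except SPRR4, which did not pass. Since the members lie in 1 cluster and share an assay, they are not independent.

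**Figure D3:**
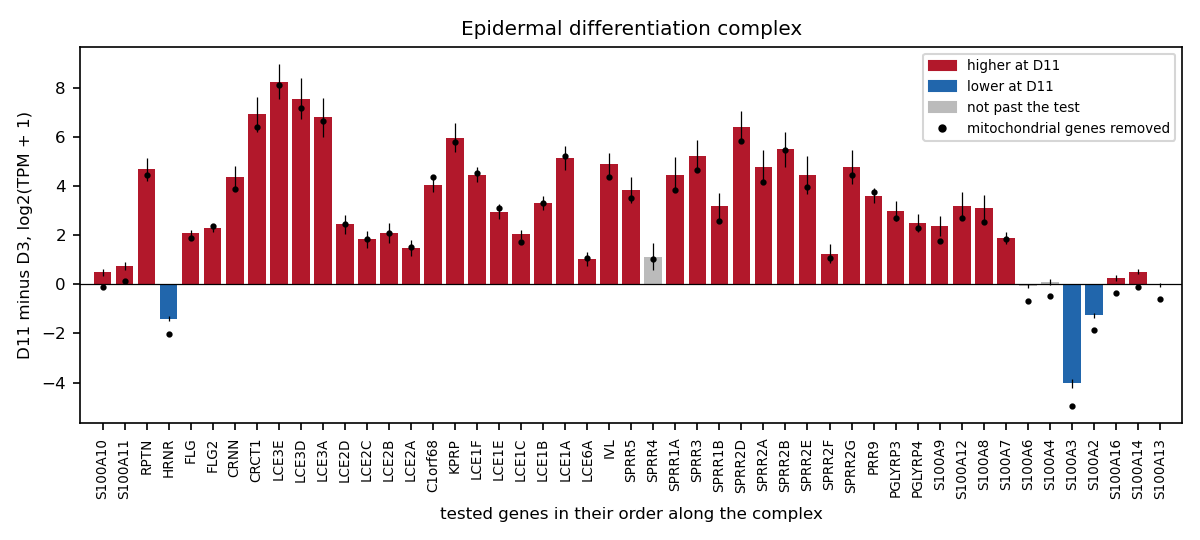
D11 minus D3 change of log2(TPM + 1) for the 49 tested genes of the epidermal differentiation complex in their order along the chromosome, with the SE as error bars, red for higher, blue for lower and grey for genes that did not pass the test. Black points are the changes after rescaling. Tall red bars run through the LCE and SPRR groups, and blue bars stand at HRNR, S100A3 and S100A2. The S100A3 bar has no fixed size, since that gene was listed at 0 in every D11 library.

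Small proline-rich proteins, the flexible cross-bridges of the envelope, rose together. Of 10 tested, 9 rose, 0 fell and 1 missed the threshold, at a median log2 change of 4.60, and 9 rose and 0 fell after rescaling. SPRR3, the esophageal member, measured 3395, 4239 and 5101 TPM at D11, against 18.2, 261 and 432 TPM at D3 (log2 change 5.24 ± 0.63, limma adjusted p = 1.2e-06). SPRR2D measured 1592, 2338 and 3972 TPM at D11, against 4.5, 75.1 and 107 TPM at D3 (log2 change 6.40 ± 0.65, limma adjusted p = 1.6e-07) and SPRR2B measured 139, 157 and 262 TPM at D11, against 0, 9.8 and 22.7 TPM at D3 (log2 change 5.49 ± 0.71, limma adjusted p = 2.7e-06). The groups did not overlap for 8 of the 10 members. Near-identical coding sequences within SPRR2 could have been split among its members by the counting, which the sources used here do not describe.

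Late cornified envelope proteins, some of which are known to rise at wounds, went the same way. Of 14 tested, 14 rose, 0 fell and 0 missed the threshold. On the log2 scale their median change was 3.12, and 14 rose and 0 fell after rescaling, with changes between 1.02 in LCE6A and 8.23 in LCE3E. CRCT1, a cysteine-rich protein beside them, measured 1318, 1826 and 5302 TPM at D11, against 2.5, 51.1 and 114 TPM at D3 (log2 change 6.92 ± 0.71, limma adjusted p = 1.9e-07). Of 13 other envelope precursors and S100 fused-type proteins, 12 rose, 1 fell and 0 missed the threshold. Across the tested members the median log2 change was 2.46, and 12 rose and 1 fell after rescaling. Involucrin, IVL, the scaffold laid down first, measured 336, 466 and 579 TPM at D11, against 3.6, 30.2 and 43 TPM at D3 (log2 change 4.89 ± 0.46, limma adjusted p = 6.4e-08). Cornulin, CRNN, abundant in normal esophagus, measured 129, 212 and 289 TPM at D11, against 2.1, 14.3 and 27.8 TPM at D3 (log2 change 4.36 ± 0.45, limma adjusted p = 2.1e-07). KPRP, a keratinocyte proline-rich protein, measured 133, 213 and 576 TPM at D11, against 0, 5.9 and 19 TPM at D3 (log2 change 5.96 ± 0.58, limma adjusted p = 1.1e-07), and cornifelin, CNFN, measured 243, 389 and 699 TPM at D11, against 1.9, 27.7 and 42 TPM at D3 (log2 change 5.10 ± 0.51, limma adjusted p = 1.4e-07). Proteins of the granular layer of skin stayed low although they rose. Loricrin, listed as LORICRIN, measured 2.7, 5.0 and 9.5 TPM at D11, against 0, 0.4 and 1.9 TPM at D3 (log2 change 1.93 ± 0.23, limma adjusted p = 1.2e-06). Filaggrin, FLG, measured 5.6, 7.6 and 9.2 TPM at D11, against 0.4, 1.4 and 1.7 TPM at D3 (log2 change 2.09 ± 0.13, limma adjusted p = 5e-10). Hornerin, HRNR, was the member that fell, at 0.5, 0.8 and 1.3 TPM at D11, against 3.0, 3.8 and 4.6 TPM at D3 (log2 change -1.40 ± 0.092, limma adjusted p = 9.6e-10), and its D11 libraries lay wholly below D3.

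Enzymes that join and trim the envelope were split. Of 12 tested, 7 rose, 2 fell and 3 missed the threshold. As a median, the log2 change was 1.79, and 7 rose and 4 fell after rescaling. CASP14, the caspase of cornification, measured 50.1, 59.8 and 71.8 TPM at D11, against 0.1, 2.0 and 2.8 TPM at D3 (log2 change 4.94 ± 0.25, limma adjusted p = 4.6e-11). Transglutaminase TGM2, a tissue-wide cross-linker that is not the main envelope enzyme, measured 7.7, 10.6 and 12.7 TPM at D11, against 0.1, 0.2 and 0.6 TPM at D3 (log2 change 3.14 ± 0.11, limma adjusted p = 8e-13). BLMH, which finishes the breakdown of filaggrin, measured 2.5, 2.8 and 3.6 TPM at D11, against 7.2, 8.0 and 9.8 TPM at D3 (log2 change -1.30 ± 0.065, limma adjusted p = 3.4e-11). The deiminase PADI3 was low and fell slightly with overlap, at 0.5, 0.7 and 1.1 TPM at D11, against 0.8, 1.3 and 1.9 TPM at D3 (log2 change -0.44 ± 0.088, limma adjusted p = 0.00029).

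Keratins of the suprabasal layers moved in both directions. Of 13 tested, 10 rose, 2 fell and 1 missed the threshold. Their median log2 change was 2.67, and 10 rose and 2 fell after rescaling. KRT13, which with KRT4 marks the normal suprabasal esophagus, measured 8.3, 11.2 and 16.2 TPM at D11, against 24.7, 85.6 and 105 TPM at D3 (log2 change -2.23 ± 0.33, limma adjusted p = 1.2e-05), wholly below D3. KRT4 measured 12.3, 16.3 and 17.7 TPM at D11, against 16, 81.6 and 128 TPM at D3 (log2 change -1.71 ± 0.4, limma adjusted p = 0.0011). Only D3 library 7, at 16 TPM, overlapped with D11. Within D3, KRT4 was high in libraries 1, 3, 4, 5 and 6, at 81.6 to 128.4 TPM, and low in the other 4, at 52.6 TPM at most. The members that rose were KRT1, KRT6A, KRT6B, KRT6C, KRT10, KRT16, KRT17, KRT23, KRT78 and KRT80, among them the pair of the skin's upper layers (KRT1 and KRT10) and keratins of wounded epithelium (KRT6 and KRT16). KRT80, which joins desmosomes late in differentiation, measured 96.3, 117 and 130.0 TPM at D11, against 0.3, 4.9 and 9.2 TPM at D3 (log2 change 4.91 ± 0.43, limma adjusted p = 2.6e-08). KRT78 measured 46.6, 52.6 and 59.2 TPM at D11, against 0.2, 3.2 and 4.6 TPM at D3 (log2 change 4.35 ± 0.33, limma adjusted p = 5e-09). KRT6A, the keratin of wounded and fast-renewing epithelium, was the most abundant of them at D11, with 31795, 37785 and 44394 TPM at D11, against 11098, 19693 and 21366 TPM at D3 (log2 change 1.26 ± 0.15, limma adjusted p = 9e-07). The type I cluster on chromosome 17 held 6 genes that rose and 3 that fell of 12 tested, and the type II cluster on chromosome 12 held 6 and 3 of 10.

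Basal keratinocyte genes had no common direction. Of 22 tested, 8 rose, 7 fell and 7 missed the threshold, with a median log2 change of -0.01. After rescaling 4 rose and 15 fell. Of all genes tested 35.3% rose and 37.8% fell, and after rescaling 14.2% rose and 69.7% fell. The counts of this list lay near those shares. KRT14, the type I keratin of basal cells, overlapped at 24467, 33001 and 38298 TPM at D11, against 25619, 34568 and 39066 TPM at D3 (log2 change 0.01 ± 0.11, limma adjusted p = 0.94). Its change was -0.60, limma adjusted p = 3e-07 after rescaling, and under quantile normalization it was 0.63 and past the threshold in the other direction. Its partner KRT5 measured 21389, 25030.4 and 32009 TPM at D11, against 30269, 38964 and 44331 TPM at D3 (log2 change -0.49 ± 0.1, limma adjusted p = 0.00036), with overlap, and the call was lost in batch 2 alone (-0.45). KRT15, a keratin of resting basal cells, measured 78, 117 and 134 TPM at D11, against 369, 428 and 481 TPM at D3 (log2 change -2.01 ± 0.1, limma adjusted p = 5.3e-11). TP63, the master factor of the basal layer, measured 10.4, 12.1 and 12.5 TPM at D11, against 15.3, 17.8 and 21.5 TPM at D3 (log2 change -0.58 ± 0.069, limma adjusted p = 1.2e-06). SOX2, the foregut factor, measured 33.5, 47.6 and 59 TPM at D11, against 86.4, 103 and 108 TPM at D3 (log2 change -1.15 ± 0.089, limma adjusted p = 5.8e-09). For KRT15, TP63 and SOX2 every D11 library lay below every D3 library. The laminin chain LAMB3 measured 311, 340.0 and 356 TPM at D11, against 74.6, 96.8 and 129 TPM at D3 (log2 change 1.82 ± 0.12, limma adjusted p = 5.9e-10). ITGA3, an integrin that binds laminins, measured 63.4, 78.1 and 94.5 TPM at D11, against 143, 176 and 218 TPM at D3 (log2 change -1.23 ± 0.089, limma adjusted p = 2.8e-09).

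Transcription factors of squamous differentiation rose almost without exception. Of 19 tested, 17 rose, 1 fell and 1 missed the threshold. The median log2 change of the list was 1.74, and 17 rose and 2 fell after rescaling, and in 16 of them the groups did not overlap. OVOL1, a zinc finger repressor that ends proliferation, measured 78, 81 and 96.4 TPM at D11, against 2.9, 7.2 and 10.6 TPM at D3 (log2 change 3.70 ± 0.23, limma adjusted p = 3.9e-10). KLF4, needed for the skin barrier, measured 617, 647 and 675 TPM at D11, against 105, 202 and 322 TPM at D3 (log2 change 1.83 ± 0.23, limma adjusted p = 1.6e-06). GRHL3, a grainyhead factor of barrier genes, measured 18.6, 24.2 and 28.7 TPM at D11, against 3.9, 7.0 and 9.7 TPM at D3 (log2 change 1.74 ± 0.18, limma adjusted p = 1.7e-07). The related GRHL2 fell slightly, at 2.6, 3.2 and 3.6 TPM at D11, against 3.3, 3.7 and 4.3 TPM at D3 (log2 change -0.22 ± 0.06, limma adjusted p = 0.0038), and its call was lost in batch 1 alone (-0.12).

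Of 20 Notch pathway genes, 12 rose, 5 fell and 3 missed the threshold. Over these genes the median log2 change was 0.29, and 5 rose and 10 fell after rescaling. NOTCH3, a receptor that Notch signalling itself induces in keratinocytes, measured 68.8, 77.6 and 92.5 TPM at D11, against 21.1, 40.9 and 54.3 TPM at D3 (log2 change 1.12 ± 0.2, limma adjusted p = 6.7e-05). NOTCH1 measured 36, 39.8 and 46.9 TPM at D11, against 33.7, 51.6 and 57 TPM at D3 (log2 change -0.26 ± 0.11, limma adjusted p = 0.034), and that call was lost on leaving out any of D3 libraries 2, 4, 7, 8 or 9 or D11 libraries 1, 3, 4 or 5. Without D3 libraries 4 and 7 together the change was -0.23, with library weights it was -0.18 and in batch 2 alone -0.03, and the call was lost in each. The repressor HES5 measured 12.1, 17.7 and 26 TPM at D11, against 0.6, 3.6 and 6.1 TPM at D3 (log2 change 2.23 ± 0.23, limma adjusted p = 1.8e-07) and the repressor HES1 276, 341 and 381 TPM at D11, against 101, 124 and 176 TPM at D3 (log2 change 1.33 ± 0.11, limma adjusted p = 2.2e-08). The ligand JAG2 measured 14.1, 17.1 and 21.2 TPM at D11, against 28.2, 35.8 and 40.5 TPM at D3 (log2 change -1.01 ± 0.095, limma adjusted p = 6.8e-08), and LFNG, a glycosyltransferase that tunes the receptors, measured 3.2, 3.5 and 4.3 TPM at D11, against 8.7, 11.4 and 12.5 TPM at D3 (log2 change -1.37 ± 0.08, limma adjusted p = 2.4e-10). Of 9 EGF receptor ligands and receptors, 4 rose, 0 fell and 5 missed the threshold, at a median log2 change of 0.54, and 2 rose and 3 fell after rescaling. The ligand TGFA measured 8.8, 10.2 and 11.5 TPM at D11, against 3.6, 4.4 and 6.2 TPM at D3 (log2 change 1.01 ± 0.09, limma adjusted p = 3.7e-08) and the receptor ERBB3 10.6, 13.4 and 15.5 TPM at D11, against 5.9, 6.9 and 7.8 TPM at D3 (log2 change 0.84 ± 0.072, limma adjusted p = 2e-08). Of 11 retinoid genes, 5 rose, 3 fell and 3 missed the threshold. On the log2 scale their median change was 0.14, and 5 rose and 6 fell after rescaling. The retinal reductase RDH12 measured 6.2, 17.3 and 22 TPM at D11, against 0, 0.5 and 1.1 TPM at D3 (log2 change 3.39 ± 0.23, limma adjusted p = 1.2e-09), and CRABP2, which carries retinoic acid to the nucleus, measured 445, 585 and 650.2 TPM at D11, against 44.3, 223 and 264 TPM at D3 (log2 change 2.20 ± 0.4, limma adjusted p = 0.00011). ALDH1A3, which makes retinoic acid, measured 11.2, 12.8 and 13.7 TPM at D11, against 15.2, 17.6 and 37.2 TPM at D3 (log2 change -0.78 ± 0.19, limma adjusted p = 0.0013), a call lost in batch 2 alone (-0.54). ALDH3A1 is given among the leading falls.

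Proteases of shedding and their inhibitors rose together. Of 18 kallikreins and other squamous proteases, 15 rose, 1 fell and 2 missed the threshold. Across the tested members the median log2 change was 1.82, and 15 rose and 2 fell after rescaling. KLK7, which cuts corneodesmosomes, measured 185, 207 and 245 TPM at D11, against 3.4, 15.9 and 21.7 TPM at D3 (log2 change 4.26 ± 0.34, limma adjusted p = 8.2e-09), and KLK12 measured 49.3, 64 and 80.2 TPM at D11, against 0.1, 4.2 and 8.6 TPM at D3 (log2 change 4.31 ± 0.47, limma adjusted p = 3.8e-07). In the kallikrein cluster (chr19:50819148-51084245, hg38) 10 of 11 tested genes rose and 0 fell, also after rescaling. The lysosomal protease CTSD went the other way, at 231, 255 and 295 TPM at D11, against 258, 325 and 369.9 TPM at D3 (log2 change -0.31 ± 0.086, limma adjusted p = 0.0038), with overlap, and that call was lost in batch 1 alone (-0.20). Of 21 inhibitors, 18 rose, 2 fell and 1 missed the threshold. As a median, the log2 change was 2.62, and 15 rose and 4 fell after rescaling. SPINK5, the inhibitor whose loss causes Netherton syndrome, measured 22.8, 34.7 and 41.2 TPM at D11, against 0.4, 1.9 and 3.1 TPM at D3 (log2 change 3.75 ± 0.25, limma adjusted p = 9.8e-10). SERPINB1, an inhibitor of neutrophil proteases, measured 31, 33 and 46.4 TPM at D11, against 49.2, 56.6 and 78.6 TPM at D3 (log2 change -0.66 ± 0.1, limma adjusted p = 2.3e-05), and SERPINB10 measured 0.4, 0.6 and 1.3 TPM at D11, against 1.1, 6.2 and 7.9 TPM at D3 (log2 change -1.56 ± 0.29, limma adjusted p = 0.00014), with overlap. In the clade B serpin cluster on chromosome 18, 8 of 10 tested genes rose and 1 fell, and 6 rose and 2 fell after rescaling.

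Of 13 desmosome genes, 11 rose, 0 fell and 2 missed the threshold. Their median log2 change was 1.16, and 10 rose and 2 fell after rescaling. Corneodesmosin, CDSN, which seals the outermost desmosomes, measured 64.4, 90.2 and 332 TPM at D11, against 0, 4.1 and 15.8 TPM at D3 (log2 change 5.03 ± 0.59, limma adjusted p = 9.1e-07), with a wide spread at D11. DSG1, the upper-layer cadherin, measured 137, 194 and 224 TPM at D11, against 2.2, 19.5 and 26.4 TPM at D3 (log2 change 4.19 ± 0.47, limma adjusted p = 5.9e-07). DSG3, its lower-layer relative, rose less, at 284, 398 and 428 TPM at D11, against 121, 178 and 221 TPM at D3 (log2 change 1.11 ± 0.14, limma adjusted p = 1.7e-06). Of 20 tight and adherens junction genes, 13 rose, 1 fell and 6 missed the threshold, with a median log2 change of 0.43. After rescaling 7 rose and 8 fell, so the majority turned with that scaling. It did not turn under median-of-ratios scaling (14 rose, 1 fell) or quantile normalization (12 rose, 1 fell). The claudin CLDN17 measured 98.3, 122 and 138 TPM at D11, against 0, 9.2 and 12.6 TPM at D3 (log2 change 4.93 ± 0.56, limma adjusted p = 6.2e-07), and the nectin NECTIN4 measured 74.2, 85.6 and 90.9 TPM at D11, against 4.7, 12 and 19.3 TPM at D3 (log2 change 2.99 ± 0.26, limma adjusted p = 2.1e-08). CLDN8 was low and fell, at 0, 0.3 and 1.0 TPM at D11, against 0.5, 1.4 and 3.0 TPM at D3 (log2 change -0.80 ± 0.21, limma adjusted p = 0.0029), with overlap. Of 7 gap junction genes, 5 rose, 0 fell and 2 missed the threshold. The median log2 change of the list was 0.83, and 4 rose and 1 fell after rescaling. The connexins GJB6 at 319, 337 and 419 TPM at D11, against 38.7, 82.6 and 102 TPM at D3 (log2 change 2.46 ± 0.22, limma adjusted p = 3.9e-08) and GJA1 at 339, 363 and 394 TPM at D11, against 94.8, 169 and 181 TPM at D3 (log2 change 1.40 ± 0.14, limma adjusted p = 1.4e-07) did not overlap between the groups.

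Lipid synthesis moved in opposite directions for the barrier and for membranes. Of 27 ceramide and barrier lipid enzymes, 22 rose, 2 fell and 3 missed the threshold. Over these genes the median log2 change was 0.95, and 16 rose and 7 fell after rescaling. SDR9C7, an oxidoreductase that acts on barrier acylceramides, measured 39.5, 44.7 and 58.4 TPM at D11, against 0, 3.1 and 5.2 TPM at D3 (log2 change 4.23 ± 0.4, limma adjusted p = 6.1e-08), and the lipoxygenase ALOX12B measured 57.3, 67.8 and 96.4 TPM at D11, against 0.7, 8.3 and 12.8 TPM at D3 (log2 change 3.85 ± 0.46, limma adjusted p = 1e-06). The elongase ELOVL6 measured 1.4, 2.7 and 2.9 TPM at D11, against 4.4, 4.8 and 7.6 TPM at D3 (log2 change -1.02 ± 0.086, limma adjusted p = 1.7e-08). Of 31 cholesterol and fatty acid synthesis genes, 5 rose, 23 fell and 3 missed the threshold, at a median log2 change of -0.48, and 3 rose and 28 fell after rescaling. Fatty acid synthase, FASN, measured 89, 96.5 and 108 TPM at D11, against 282, 399.6 and 532 TPM at D3 (log2 change -2.04 ± 0.11, limma adjusted p = 1.1e-10), and the desaturase FADS2 measured 3.9, 7.0 and 8.5 TPM at D11, against 23.1, 26.3 and 47 TPM at D3 (log2 change -2.19 ± 0.14, limma adjusted p = 8.1e-10). Both lay wholly below D3, and FADS2 may share reads with FEN1, which it overlaps. The largest rises of the list were in 2 enzymes of late sterol synthesis. TM7SF2 measured 74.9, 92 and 104 TPM at D11, against 9.5, 21.4 and 26.7 TPM at D3 (log2 change 2.31 ± 0.2, limma adjusted p = 2.6e-08) and SC5D 80.2, 113 and 122 TPM at D11, against 30.8, 35.5 and 40.1 TPM at D3 (log2 change 1.54 ± 0.088, limma adjusted p = 1.8e-10).

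Genes induced by low oxygen rose broadly. Of 24 tested, 22 rose, 0 fell and 2 missed the threshold. On the log2 scale their median change was 1.80, and 21 rose and 2 fell after rescaling, and in 21 of them the D11 libraries lay wholly above. ANKRD37, a small ankyrin protein and HIF target, measured 84.3, 159 and 309 TPM at D11, against 3.4, 5.0 and 7.0 TPM at D3 (log2 change 4.85 ± 0.22, limma adjusted p = 1e-11). The carbonic anhydrase CA9 measured 93.7, 108 and 164 TPM at D11, against 1.8, 22.3 and 43.9 TPM at D3 (log2 change 3.44 ± 0.53, limma adjusted p = 1.8e-05). The angiogenic factor VEGFA measured 110.0, 168 and 263 TPM at D11, against 31.1, 39.3 and 104 TPM at D3 (log2 change 1.82 ± 0.25, limma adjusted p = 5e-06). Of 22 glycolysis genes, 16 rose, 3 fell and 3 missed the threshold. Across the tested members the median log2 change was 0.53, and 9 rose and 11 fell after rescaling, so the majority turned with that scaling. It did not turn under median-of-ratios scaling (17 rose, 3 fell) or quantile normalization (12 rose, 6 fell). ENO2, an enolase found mainly in neurons and under hypoxia, measured 61.5, 74.9 and 153 TPM at D11, against 2.9, 7.0 and 13.4 TPM at D3 (log2 change 3.76 ± 0.21, limma adjusted p = 1.8e-10). Hexokinase HK2 measured 155, 187 and 307 TPM at D11, against 11.6, 16.8 and 22.4 TPM at D3 (log2 change 3.66 ± 0.14, limma adjusted p = 1.9e-12), and the glucose transporter SLC2A1 measured 557, 635 and 688 TPM at D11, against 169, 288 and 333 TPM at D3 (log2 change 1.33 ± 0.15, limma adjusted p = 4.9e-07). The muscle phosphofructokinase PFKM measured 2.5, 3.3 and 3.7 TPM at D11, against 10.8, 12.1 and 13.9 TPM at D3 (log2 change -1.73 ± 0.067, limma adjusted p = 1.7e-12), and the lactate exporter SLC16A3 measured 37.6, 40.6 and 41.7 TPM at D11, against 46.5, 58.2 and 63.2 TPM at D3 (log2 change -0.48 ± 0.076, limma adjusted p = 2.7e-05). These last falls were without overlap.

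The promoters of ANKRD37 (chr4:185396591-185396890, plus strand) and ENO2 (chr12:6914330-6914629, plus strand) are shown because HIF binds the core letters ACGTG or GCGTG and they had the largest rises of the hypoxia and glycolysis lists. The windows are those of RefSeq described for MKI67, and capitals mark ACGTG or GCGTG on either strand.
ANKRD37: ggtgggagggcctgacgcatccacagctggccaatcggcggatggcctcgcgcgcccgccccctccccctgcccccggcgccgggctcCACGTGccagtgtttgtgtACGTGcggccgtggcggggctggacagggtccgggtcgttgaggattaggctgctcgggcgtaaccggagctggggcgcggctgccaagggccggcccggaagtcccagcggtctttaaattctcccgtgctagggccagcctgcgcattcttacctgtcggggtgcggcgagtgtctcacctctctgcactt
ENO2: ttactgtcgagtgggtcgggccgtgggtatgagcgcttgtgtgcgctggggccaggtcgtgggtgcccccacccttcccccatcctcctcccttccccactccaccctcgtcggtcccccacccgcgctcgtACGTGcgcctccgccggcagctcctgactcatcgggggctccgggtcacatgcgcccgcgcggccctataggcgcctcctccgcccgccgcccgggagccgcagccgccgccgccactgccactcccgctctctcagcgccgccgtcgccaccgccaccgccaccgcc
ANKRD37 held 3 matches, the first a pair that overlap on opposite strands (CACGT and ACGTG), and ENO2 held 1. Over the 41 hypoxia and glycolysis promoters found by symbol, 30 (73.2%) held such letters, against 63.5% of the 8742 promoters of tested genes and 48.4% of all windows. The share was 74.1% for mitosis genes and 74.2% for DNA replication genes, lists that fell. These letters are common in promoters.

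The respiratory chain fell in both of its genomes. Of the 13 mitochondrially encoded genes, 0 rose, 12 fell and 1 did not pass, with a median log2 change of -1.36. MT-ATP6, a subunit of ATP synthase, measured 9394, 11682 and 15574 TPM at D11, against 42745, 59986 and 64291 TPM at D3 (log2 change -2.16 ± 0.12, limma adjusted p = 1.3e-10), and its neighbour MT-ATP8 measured 2938, 4801 and 5983 TPM at D11, against 14121, 19717 and 29174 TPM at D3 (log2 change -2.14 ± 0.16, limma adjusted p = 2.9e-09). Of 54 nuclear-encoded subunits, 3 rose, 42 fell and 9 missed the threshold. As a median, the log2 change was -0.40, and 0 rose and 52 fell after rescaling. ATP5MC1, a subunit of the rotor ring, measured 12.5, 19.3 and 26.2 TPM at D11, against 60.6, 80.5 and 96.8 TPM at D3 (log2 change -2.04 ± 0.11, limma adjusted p = 1.1e-10), and cytochrome c, CYCS, measured 51.9, 95.8 and 103 TPM at D11, against 122, 148 and 242 TPM at D3 (log2 change -1.13 ± 0.14, limma adjusted p = 1.5e-06). The rises of ATP5F1E at 27, 34 and 37.7 TPM at D11, against 19, 23.1 and 32.8 TPM at D3 (log2 change 0.35 ± 0.11, limma adjusted p = 0.008) and NDUFA12 at 2.3, 2.8 and 3.3 TPM at D11, against 1.6, 2.0 and 2.6 TPM at D3 (log2 change 0.33 ± 0.07, limma adjusted p = 0.00045) overlapped and turned to -0.24 and -0.11 after rescaling. The ATP5F1E call was also lost in either batch alone and under quantile normalization (0.25). Of 83 cytosolic ribosomal proteins, 62 rose, 4 fell and 17 missed the threshold. Their median log2 change was 0.47, and 5 rose and 40 fell after rescaling, and under quantile normalization 23 rose and 30 fell. RPS27 was the largest rise, at 218, 249.5 and 277 TPM at D11, against 35.6, 60.3 and 86.9 TPM at D3 (log2 change 2.11 ± 0.15, limma adjusted p = 2.2e-09), followed by RPL39 at 97.1, 148 and 189 TPM at D11, against 38, 55.3 and 71.2 TPM at D3 (log2 change 1.40 ± 0.15, limma adjusted p = 4.1e-07). RPL22L1, a paralog of RPL22, fell, at 24.6, 27.1 and 31.7 TPM at D11, against 32.5, 43.8 and 70.9 TPM at D3 (log2 change -0.68 ± 0.12, limma adjusted p = 9.3e-05). Processed pseudogenes of ribosomal proteins could have shared their reads.

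Of 19 wound-edge genes, 17 rose, 0 fell and 2 missed the threshold, with a median log2 change of 1.24, and 12 rose and 3 fell after rescaling. The stromelysin MMP10 measured 11.8, 13.7 and 15.3 TPM at D11, against 0.1, 0.2 and 0.5 TPM at D3 (log2 change 3.59 ± 0.067, limma adjusted p = 4.3e-16), and the gelatinase MMP9 measured 13, 16.8 and 20.5 TPM at D11, against 0.1, 0.9 and 1.8 TPM at D3 (log2 change 3.42 ± 0.18, limma adjusted p = 5.3e-11). Fibronectin, FN1, measured 13.7, 16.3 and 18.9 TPM at D11, against 6.3, 7.5 and 8.9 TPM at D3 (log2 change 0.97 ± 0.077, limma adjusted p = 9e-09). None of these overlapped. Of 14 matrix metalloproteinases and inhibitors, 11 rose, 0 fell and 3 missed the threshold. The median log2 change of the list was 0.48, and 6 rose and 4 fell after rescaling. Of 22 collagen and basement membrane genes, 7 rose, 12 fell and 3 missed the threshold. Over these genes the median log2 change was -0.36, and 3 rose and 14 fell after rescaling. Of all genes tested 14.2% rose and 69.7% fell after rescaling, and the rescaled counts of this list lay near those shares. COL1A1, a fibrillar collagen usually made by fibroblasts, measured 57.9, 74.9 and 78.1 TPM at D11, against 8.0, 23.9 and 30.3 TPM at D3 (log2 change 1.99 ± 0.25, limma adjusted p = 2e-06), while no other fibroblast marker passed the filter. Whether other cells had a part in its rise was not tested. The cross-linking oxidase LOXL2 measured 3.8, 4.8 and 7.1 TPM at D11, against 1.1, 2.1 and 3.3 TPM at D3 (log2 change 1.15 ± 0.13, limma adjusted p = 6.2e-07). COL12A1 measured 1.0, 1.3 and 1.5 TPM at D11, against 3.6, 4.5 and 5.7 TPM at D3 (log2 change -1.32 ± 0.079, limma adjusted p = 3.1e-10), and the matrix glycoprotein SPARC measured 24.2, 37.9 and 42.5 TPM at D11, against 61.6, 65.1 and 71.2 TPM at D3 (log2 change -0.91 ± 0.088, limma adjusted p = 9.5e-08). Of 25 YAP and SRF targets, 6 rose, 12 fell and 7 missed the threshold, at a median log2 change of -0.21, and 4 rose and 19 fell after rescaling. Their rescaled counts also lay near the shares of all genes. Thrombospondin THBS1 measured 22.9, 27.9 and 30.3 TPM at D11, against 72, 84.7 and 152 TPM at D3 (log2 change -1.79 ± 0.15, limma adjusted p = 2.3e-08) and tropomyosin TPM2 13.3, 17.9 and 26.3 TPM at D11, against 48.4, 54.2 and 63.7 TPM at D3 (log2 change -1.48 ± 0.1, limma adjusted p = 1.7e-09). Tissue factor, F3, rose at 102, 117 and 143 TPM at D11, against 16.6, 24.7 and 29.5 TPM at D3 (log2 change 2.24 ± 0.1, limma adjusted p = 1.1e-11), as did CCN2 at 4.9, 6.8 and 8.4 TPM at D11, against 0.8, 1.6 and 1.8 TPM at D3 (log2 change 1.68 ± 0.11, limma adjusted p = 1e-09).

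Secreted defence genes were mixed. Of 23 antimicrobial and S100A genes, 16 rose, 4 fell and 3 missed the threshold. On the log2 scale their median change was 0.74, and 11 rose and 7 fell after rescaling. LCN2, which binds iron carriers of bacteria, measured 83.3, 128 and 186 TPM at D11, against 0.5, 6.9 and 13.4 TPM at D3 (log2 change 4.73 ± 0.45, limma adjusted p = 7e-08), and S100P measured 40, 57 and 91.7 TPM at D11, against 0.1, 1.4 and 4.4 TPM at D3 (log2 change 4.54 ± 0.32, limma adjusted p = 2e-09). SAA2 fell with SAA1, at 0, 0.1 and 0.4 TPM at D11, against 2.8, 7.4 and 10.8 TPM at D3 (log2 change -2.73 ± 0.21, limma adjusted p = 5e-09), and these near-identical genes may share reads. Of 8 IL-1 and IL-36 family genes, 5 rose, 1 fell and 2 missed the threshold. Across the tested members the median log2 change was 0.47, and 2 rose and 3 fell after rescaling. The rises were led by antagonists, IL36RN at 58.5, 84.9 and 94.7 TPM at D11, against 1.2, 10.9 and 14.1 TPM at D3 (log2 change 3.71 ± 0.38, limma adjusted p = 1.9e-07) and IL1RN at 121, 149.5 and 168 TPM at D11, against 18.1, 36.1 and 43.1 TPM at D3 (log2 change 2.35 ± 0.17, limma adjusted p = 2.3e-09). IL18 measured 8.1, 11.5 and 14.2 TPM at D11, against 16.1, 19.7 and 21.6 TPM at D3 (log2 change -0.68 ± 0.09, limma adjusted p = 3.4e-06), wholly below D3. Of 14 chemokines and cytokines, 5 rose, 4 fell and 5 missed the threshold. As a median, the log2 change was -0.04, and 5 rose and 7 fell after rescaling. As deposited 35.3% of all genes rose and 37.8% fell, and the counts of this list were not far from those shares. The death ligand TNFSF10 measured 60.7, 69.8 and 85.3 TPM at D11, against 11.3, 21.5 and 29.6 TPM at D3 (log2 change 1.85 ± 0.19, limma adjusted p = 1.6e-07) and IL11 7.4, 9.6 and 14.2 TPM at D11, against 2.2, 3.3 and 5.2 TPM at D3 (log2 change 1.34 ± 0.14, limma adjusted p = 1.6e-07). CXCL14 measured 5.6, 7.6 and 15.5 TPM at D11, against 32.9, 60.4 and 90 TPM at D3 (log2 change -2.31 ± 0.2, limma adjusted p = 2.8e-08), and the granulocyte factor CSF3 0, 0.9 and 3.1 TPM at D11, against 2.5, 6.5 and 41.1 TPM at D3 (log2 change -2.37 ± 0.48, limma adjusted p = 0.00029), with slight overlap. At D3 libraries 2, 7 and 8 held 16 TPM or more of CSF3 and the others 8.1 TPM or less.

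Of 20 interferon-stimulated genes, 8 rose, 10 fell and 2 missed the threshold. Their median log2 change was -0.11, and 7 rose and 11 fell after rescaling. IFI27 measured 13.7, 21.1 and 26.4 TPM at D11, against 1.1, 2.3 and 3.6 TPM at D3 (log2 change 2.76 ± 0.17, limma adjusted p = 5.3e-10), and IFITM1 measured 14.6, 20.7 and 33.1 TPM at D11, against 0, 0 and 24.5 TPM at D3 (log2 change 3.07 ± 0.72, limma adjusted p = 0.0011), with D3 libraries 2, 3, 7, 8 and 9 listed at 0. IFITM3 measured 37.3, 49.8 and 52.8 TPM at D11, against 115, 129 and 147 TPM at D3 (log2 change -1.42 ± 0.08, limma adjusted p = 1.4e-10) and OAS2 2.6, 4.1 and 4.8 TPM at D11, against 9.0, 10.8 and 12.1 TPM at D3 (log2 change -1.28 ± 0.089, limma adjusted p = 1.8e-09). Of 16 MHC class I genes, 3 rose, 8 fell and 5 missed the threshold, with a median log2 change of -0.19, and 1 rose and 14 fell after rescaling. The proteasome subunits PSMB9, at 3.5, 4.5 and 6.5 TPM at D11, against 14.8, 19 and 24.2 TPM at D3 (log2 change -1.83 ± 0.1, limma adjusted p = 1.1e-10), and PSMB10, at 6.4, 10.8 and 12.7 TPM at D11, against 28.3, 38.2 and 43.2 TPM at D3 (log2 change -1.74 ± 0.13, limma adjusted p = 4.5e-09), lay wholly below D3. HLA-E, a ligand of natural killer cell receptors, measured 698, 759 and 785 TPM at D11, against 268, 336 and 419 TPM at D3 (log2 change 1.19 ± 0.1, limma adjusted p = 2.4e-08). The chaperone CALR measured 693, 806 and 847 TPM at D11, against 497, 530.4 and 676 TPM at D3 (log2 change 0.46 ± 0.081, limma adjusted p = 7.7e-05), and its change was -0.15 after rescaling and -0.22 with quantile normalization. CD68, a lysosomal protein that also marks macrophages, measured 399, 426 and 480.1 TPM at D11, against 111, 145 and 176 TPM at D3 (log2 change 1.60 ± 0.088, limma adjusted p = 1.1e-10), while the macrophage receptor CSF1R measured 71.5, 82.6 and 93.9 TPM at D11, against 53, 75.3 and 92.8 TPM at D3 (log2 change 0.28 ± 0.11, limma adjusted p = 0.029) and was -0.33 after rescaling. The CSF1R call was lost on leaving out D3 library 8 or 9 or D11 library 1, 3, 5 or 7, with changes of 0.23 to 0.26 there, in either batch alone, without the batch term and under quantile normalization (0.05).

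Of 12 genes of the IL-4 and IL-13 receptors and their signalling, 5 rose, 5 fell and 2 missed the threshold. The median log2 change of the list was 0.11, and 2 rose and 7 fell after rescaling. These counts were not far from the shares of all genes. Those were 35.3% higher and 37.8% lower, and 14.2% and 69.7% after rescaling. IL13RA1, the signalling chain for IL-13, measured 7.2, 9.0 and 10.1 TPM at D11, against 3.5, 4.2 and 4.7 TPM at D3 (log2 change 0.90 ± 0.07, limma adjusted p = 6.5e-09). IL4R, its partner chain, measured 11.1, 12.1 and 13.8 TPM at D11, against 8.5, 10 and 11.6 TPM at D3 (log2 change 0.26 ± 0.074, limma adjusted p = 0.0049), with overlap. Its change was -0.31 after rescaling, and the call was lost in batch 2 alone (0.17). STAT6, the factor they activate, measured 15.6, 22.6 and 24.2 TPM at D11, against 30.6, 36 and 40.2 TPM at D3 (log2 change -0.75 ± 0.093, limma adjusted p = 1.9e-06). The feedback inhibitor CISH measured 27.4, 31.8 and 34 TPM at D11, against 13.9, 15.7 and 19.7 TPM at D3 (log2 change 0.94 ± 0.068, limma adjusted p = 2.6e-09), and the phosphatase PTPN6 3.7, 4.3 and 5.6 TPM at D11, against 10.3, 12.3 and 14.5 TPM at D3 (log2 change -1.29 ± 0.071, limma adjusted p = 1.2e-10). The decoy receptor IL13RA2 stayed at 0 to 0.1 TPM and the protease CAPN14 at 0.1 to 0.2 TPM in both groups, and neither was tested. The chloride channel ANO1 was low, at 0.6, 0.7 and 1.0 TPM at D11, against 1.2, 1.6 and 2.0 TPM at D3 (log2 change -0.60 ± 0.073, limma adjusted p = 1.3e-06). Of 13 mucins and Ly6 proteins, 9 rose, 4 fell and 0 missed the threshold. Over these genes the median log2 change was 1.95, and 9 rose and 4 fell after rescaling. SLURP2 measured 1085, 1296 and 1699 TPM at D11, against 8.6, 124 and 193 TPM at D3 (log2 change 4.69 ± 0.65, limma adjusted p = 5.7e-06), and it shares a readthrough transcript with LYNX1, so reads of the 2 genes may be mixed. LY6E measured 38.7, 48.1 and 49.7 TPM at D11, against 125, 161 and 202 TPM at D3 (log2 change -1.83 ± 0.094, limma adjusted p = 4.8e-11).

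Most genes of the unfolded protein response rose, and most of the NRF2 programme fell. Of 28 genes of the first kind, 19 rose, 2 fell and 7 missed the threshold, at a median log2 change of 0.90, and 14 rose and 10 fell after rescaling. PPP1R15A, which restores translation after stress, measured 459, 575 and 737 TPM at D11, against 46.3, 60.6 and 132 TPM at D3 (log2 change 3.13 ± 0.19, limma adjusted p = 4.5e-10), and the co-chaperone DNAJB9 measured 80.2, 93 and 103 TPM at D11, against 5.9, 10 and 13.2 TPM at D3 (log2 change 3.08 ± 0.13, limma adjusted p = 3.6e-12). The folding enzyme PDIA4 measured 25.5, 31.7 and 35 TPM at D11, against 35.4, 39.5 and 55.9 TPM at D3 (log2 change -0.52 ± 0.098, limma adjusted p = 0.00016), and SDF2L1 measured 19.1, 21.7 and 25.9 TPM at D11, against 22.2, 26.9 and 49.3 TPM at D3 (log2 change -0.47 ± 0.15, limma adjusted p = 0.008), a call lost in either batch alone. SESN2, a stress sensor, measured 17.9, 26.7 and 35.2 TPM at D11, against 5.4, 6.4 and 34.6 TPM at D3 (log2 change 1.31 ± 0.37, limma adjusted p = 0.0043), and overlapped only through D3 libraries 4 and 5, at 31.4 and 34.6 TPM. The SESN2 call was lost in batch 2 alone (0.98). Of 26 NRF2 genes, 5 rose, 15 fell and 6 missed the threshold. On the log2 scale their median change was -0.35, and 2 rose and 23 fell after rescaling. ME1, a source of NADPH, rose slightly, at 2.9, 3.5 and 4.2 TPM at D11, against 1.2, 1.3 and 1.5 TPM at D3 (log2 change 0.93 ± 0.055, limma adjusted p = 2.4e-10). HMOX1, which breaks down heme, measured 4.2, 5.6 and 12.5 TPM at D11, against 0.4, 0.9 and 1.2 TPM at D3 (log2 change 2.01 ± 0.15, limma adjusted p = 3.1e-09).

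Of 20 heat shock chaperones, 10 rose, 4 fell and 6 missed the threshold. Across the tested members the median log2 change was 0.20, and 5 rose and 10 fell after rescaling. The small chaperone CRYAB measured 41.5, 56.9 and 95.9 TPM at D11, against 2.2, 18.6 and 24.2 TPM at D3 (log2 change 2.78 ± 0.41, limma adjusted p = 1e-05) and HSPA1A 622, 1225 and 1927 TPM at D11, against 292, 432 and 520.3 TPM at D3 (log2 change 1.47 ± 0.18, limma adjusted p = 1.9e-06). The constitutive HSPA8 measured 302, 371 and 402 TPM at D11, against 422, 658 and 908 TPM at D3 (log2 change -0.87 ± 0.17, limma adjusted p = 0.00016). HSPA1A and HSPA1B are near-identical copies whose reads may be split. Of 5 metallothioneins, 3 rose, 2 fell and 0 missed the threshold. As a median, the log2 change was 0.77, and 2 rose and 2 fell after rescaling. MT1X measured 1373, 1808 and 2382 TPM at D11, against 612, 856 and 1322 TPM at D3 (log2 change 1.11 ± 0.14, limma adjusted p = 1.9e-06) and MT1F 9.1, 13.3 and 15.8 TPM at D11, against 3.5, 5.5 and 9.7 TPM at D3 (log2 change 1.13 ± 0.16, limma adjusted p = 8.7e-06). MT1E measured 48.4, 68.8 and 104 TPM at D11, against 221, 269 and 323 TPM at D3 (log2 change -1.98 ± 0.12, limma adjusted p = 4.7e-10), and MT2A 1329.8, 1506 and 1746 TPM at D11, against 1418, 1909.8 and 2861 TPM at D3 (log2 change -0.47 ± 0.13, limma adjusted p = 0.0048), a call lost in batch 2 alone. Of 21 immediate early and AP-1 genes, 16 rose, 2 fell and 3 missed the threshold. Their median log2 change was 0.92, and 12 rose and 4 fell after rescaling. The phosphatase DUSP1 measured 290.3, 359 and 467 TPM at D11, against 19.2, 47.2 and 64.6 TPM at D3 (log2 change 3.40 ± 0.24, limma adjusted p = 2.1e-09), and the survival gene IER3 measured 1666, 1873 and 2169 TPM at D11, against 160.4, 257 and 317 TPM at D3 (log2 change 2.98 ± 0.11, limma adjusted p = 1.3e-12). The fall of MYC, at 111, 195 and 239 TPM at D11, against 259.7, 361 and 509 TPM at D3 (log2 change -1.07 ± 0.18, limma adjusted p = 4.2e-05), was without overlap. EGR1 measured 68.7, 131 and 304 TPM at D11, against 223, 325 and 533 TPM at D3 (log2 change -1.38 ± 0.28, limma adjusted p = 0.00034), and this call was lost in batch 1 alone (-0.51) and with all 26 untreated libraries in the fit (-1.13).

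**Figure D4:**
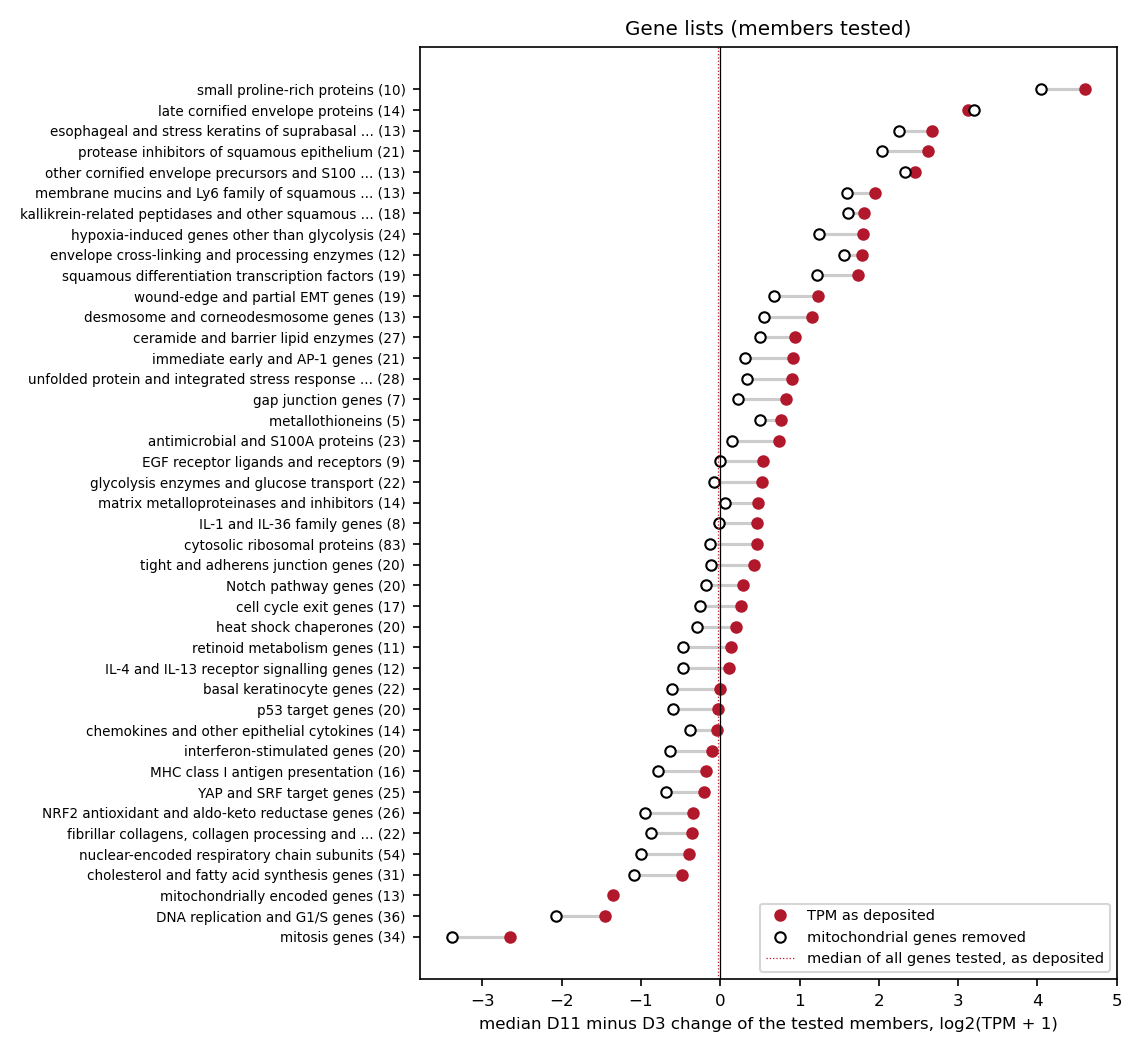
Median D11 minus D3 change of log2(TPM + 1) over the tested members of each list, as deposited (filled) and after rescaling (open), with the number of members tested in parentheses. Small proline-rich proteins stand at the top and mitosis genes at -2.65, and 14 of 41 lists lose or turn their majority direction after rescaling.

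The monolayers give the level from which both spheroid stages began, though they also differ in culture. Set against them, D11 spheroids were higher in 2423 (22.0%) and lower in 7014 (63.6%) of the 11036 genes. Mitochondrially encoded genes took 44.8 to 50.1% of the TPM in monolayers, against 14.8 to 27.9% at D11. The contrast with monolayers was not repeated after rescaling, so it holds the lift of other genes at D11. Several genes were highest or lowest at D3. The D3 libraries were taken at the end of the days with the ROCK inhibitor, and none is given for the monolayers. The stage and the inhibitor therefore cannot be told apart in these high and low points. KRT13 measured 0, 0 and 0.4 TPM at D0, 24.7, 85.6 and 105 TPM at D3 and 8.3, 11.2 and 16.2 TPM at D11 (log2 difference from monolayer 3.48 ± 0.27, limma adjusted p = 5.2e-12). GLUL stood at 168, 206 and 248 TPM at D0, 480.0, 575 and 698 TPM at D3 and 37.2, 42.2 and 46.7 TPM at D11 (log2 difference from monolayer -2.28 ± 0.088, limma adjusted p = 4.3e-18). ALDH3A1 was near 0 at D0, at 0.1, 0.2 and 0.8 TPM, then 26.6, 29.5 and 41.3 TPM at D3 and 0.3, 0.9 and 1.4 TPM at D11 (log2 difference from monolayer 0.60 ± 0.11, limma adjusted p = 1.8e-05). These genes were highest at D3. In contrast PPP1R15A was lowest there, with 214, 858 and 1594 TPM at D0, 46.3, 60.6 and 132 TPM at D3 and 459, 575 and 737 TPM at D11 (log2 difference from monolayer 0.07 ± 0.33, limma adjusted p = 0.86). For IER3 the levels were 1073, 1732 and 2455 TPM at D0, 160.4, 257 and 317 TPM at D3 and 1666, 1873 and 2169 TPM at D11 (log2 difference from monolayer 0.24 ± 0.14, limma adjusted p = 0.12). VEGFA showed 81.1, 205 and 347 TPM at D0, 31.1, 39.3 and 104 TPM at D3 and 110.0, 168 and 263 TPM at D11 (log2 difference from monolayer 0.05 ± 0.33, limma adjusted p = 0.89). For these 3 genes the D11 level was not distinguished from the monolayer by the test on TPM as deposited, within the SE given. Whether that holds after rescaling was not tested. G0S2, an inhibitor of fat breakdown, rose between D3 and D11 (log2 change 3.61 ± 0.2, limma adjusted p = 1.1e-10) and was still far under the monolayer, with 1579, 2922 and 4165 TPM at D0, 9.9, 17 and 21.7 TPM at D3 and 132, 199 and 320.3 TPM at D11 (log2 difference from monolayer -3.76 ± 0.21, limma adjusted p = 1.1e-14). FN1 likewise stood at 569, 1065 and 1556 TPM at D0, 6.3, 7.5 and 8.9 TPM at D3 and 13.7, 16.3 and 18.9 TPM at D11 (log2 difference from monolayer -5.81 ± 0.16, limma adjusted p = 1.2e-20). Both contrasts use the same D11 libraries.

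**Figure D5:**
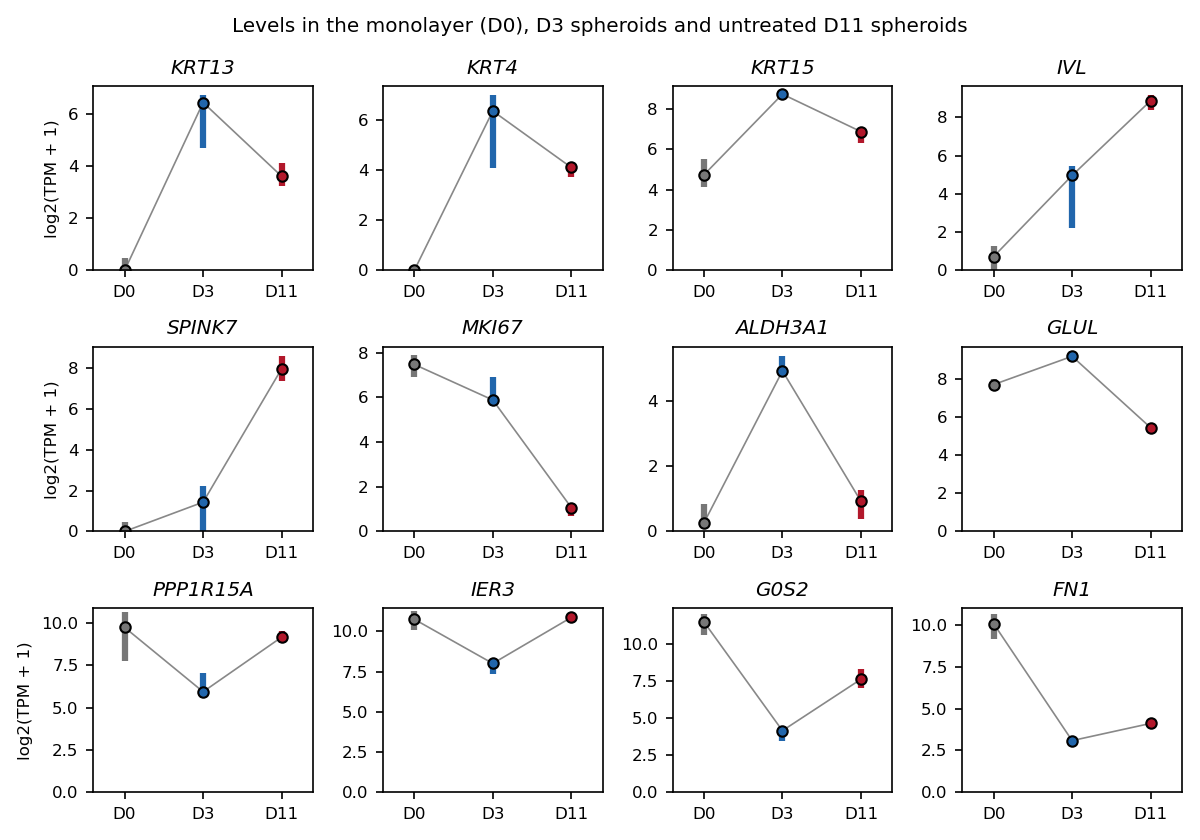
Levels of 12 genes as log2(TPM + 1) in the monolayer (D0, 10 libraries), D3 spheroids (9) and untreated D11 spheroids (7), with dots for the medians and thick lines for the range over libraries. IVL and SPINK7 rise throughout, KRT13, KRT4, KRT15, ALDH3A1 and GLUL peak at D3, MKI67 falls, and PPP1R15A, IER3, G0S2 and FN1 are lowest at D3.

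The size of the change differed between the batches for 1426 genes (12.9%) by a limma interaction of group and batch. Without D3 libraries 4 and 7 it differed for 3510 of the 11036 genes tested, so the number rests on these libraries. Beside these numbers for all genes, 12 of the 182 named genes tested differed with all libraries and 82 without these 2, among them envelope genes. The batch 2 minus batch 1 difference of IVL was -1.21 (limma adjusted p = 0.38) with all libraries and -2.42 (limma adjusted p = 1.9e-05) without them. That of LCE3E was -1.11 (limma adjusted p = 0.64) with them and -3.15 (limma adjusted p = 7.4e-06) without. Both genes rose in either batch alone, by 4.26 and 7.66 in batch 2 and 5.47 and 8.77 in batch 1. Fitted alone, batch 1 gave 4019 genes higher and 2991 lower at D11, and batch 2 gave 2890 higher and 4409 lower. For ANKRD37 the rise was 5.55 in batch 2 and 4.19 in batch 1. The fall of EGR1 was -2.31 in batch 2 and -0.51 in batch 1, and the fall of MYC was -1.62 in batch 2 and -0.55 in batch 1.

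A few genes were listed at exactly 0 in all libraries of 1 group and at 5 TPM or more in all of the other, for which no fold is given. IFNK, a keratinocyte interferon, was listed at 0 in all 9 D3 libraries and stood at 19.7, 24.3 and 44.4 TPM at D11. EIF4EBP3, a translation repressor, was likewise listed at 0 at D3 and stood at 6.3, 12.0 and 19.2 TPM at D11. The antioxidant enzyme GPX2, the calcium-binding S100A3 and the RNA-binding RBM12 were listed at 0 in all 7 D11 libraries. At D3 they stood at 11.3, 18.7 and 29 TPM for GPX2, at 8.2, 16.4 and 23.2 TPM for S100A3 and at 19.4, 30.8 and 36.6 TPM for RBM12. RBM12 overlaps CPNE1 on the same strand and S100A3 overlaps S100A4, and those partners were similar in both groups. CPNE1 measured 23.3, 25.9 and 29.5 TPM at D11, against 21.4, 26.4 and 27.7 TPM at D3, and S100A4 measured 6.4, 11.4 and 12.6 TPM at D11, against 6.5, 9.4 and 11.5 TPM at D3. A listed 0 can be a failed estimate where reads are shared between overlapping genes, which was not tested. LYNX1, a Ly6 gene, was also listed at 0 in every D11 library, with 0.7 to 4.2 TPM at D3.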

How the data were processed

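The authors deposited TPM values, rounded to 1 decimal, for 19345 gene symbols and 32 libraries of total RNA. The submitters' processing notes name the hg38 build. The sources used here name no aligner, quantifier or annotation and do not say how strand was handled. TPM totals of the 16 libraries lay between 999960 and 999989. Sequencing depth therefore cannot be read from the values, and intervals for counting error are left out. A fixed total also means that a fall of abundant transcripts lifts all others.

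Libraries were grouped by their labels, and columns were matched to samples by name. The genes tested had at least 1 TPM in 7 or more of the 16 libraries. Their log2(TPM + 1) values were modelled by group plus batch in limma 3.58.1 under R 4.3.3, with an intensity trend and Benjamini-Hochberg adjustment at 0.05. The interaction of group and batch, and D11 against the monolayer with 26 libraries, were fitted separately. Shares of TPM were compared by exact two-sided permutation over libraries. On simulated data with 200 of 11036 genes changed, the D11 against D3 fit found 92% of changes of 1 and 80% of changes of 0.5 on the log2 scale, with 8 false calls. The simulation drew independent noise for each gene and held no shift of the mitochondrial share, so it does not measure errors from scaling. Within groups, Pearson correlations of log2 values were 0.973 to 0.993 at D11 and 0.957 to 0.994 at D3. No pair of libraries shared more than 2.07% of its values, so none appeared to be deposited again.

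The members, 40 pathway lists and 5 marker lists were chosen with earlier results of these data known. Of 912 symbols in the pathway lists, 905 were found in the table. Named genes are the 15 largest rises and falls with the same sign in both batches and a mean of 10 TPM or more in the higher group, the 2 largest rises and falls of each list, and a fixed set of differentiation, hypoxia and receptor genes. IFNK and EIF4EBP3, named for values listed at 0 at D3, and CPNE1 and S100A4, which overlap leading falls, were chosen after their values were seen. Alternatives covered pseudocount, filter, scaling, batch, library weights, libraries left out and a replicate block. Coordinates are from GENCODE release 29 (hg38) and promoter windows from RefSeq (GRCh38.p14). Python 3.11.15 and matplotlib 3.10.9 were used. The IL-13 columns could be matched to their group only and enter no comparison here. Some genes that the naming rule selected are not reported here.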

Additional observations from a re-analysis of the deposited data

Results flagged for a closer look

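Among 374 sets of a gene and a group examined, 11 had a library far from the others of its group, and chance gives about 1 in 20. The highest library stood apart for DEPP1 (D3 library 6, 6.7 TPM), HASPIN (D11 library 3, 2.5 TPM), ALDH3A1 (D3 library 9, 41.3 TPM), HSPE1 (D11 library 7, 4.1 TPM), CDKN2A (D11 library 3, 0.7 TPM), FAS (D11 library 2, 3.1 TPM), MMP10 (D3 library 6, 0.5 TPM), HMOX1 (D11 library 7, 12.5 TPM) and NDUFA12 (D3 library 2, 2.6 TPM). The lowest library stood apart for THBS1 (D11 library 1, 22.9 TPM) and CISH (D11 library 5, 27.4 TPM).

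For 12 of the 182 named genes tested, the D11 minus D3 change differed between the batches by the limma interaction. The difference, batch 2 minus batch 1 on the log2 scale, was positive for ANKRD37 (1.36) and JAG2 (0.53). It was negative for GDF15 (-1.95), EGR1 (-1.79), RDH12 (-1.34), MYC (-1.07), G0S2 (-1.02), STAT6 (-0.54), POLH (-0.50), RPL7L1 (-0.48), SC5D (-0.47) and IL13RA1 (-0.35). D3 libraries 4 and 7, which lay with the other batch, enter these differences as labelled. Without them all 12 genes differed in the same direction, and 82 of the 182 genes differed in total. Over all 11036 genes tested, 1426 (12.9%) differed with all libraries and 3510 without these 2.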

How the results depend on the processing

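With mitochondrial genes removed, 1568 genes were higher and 7684 lower at D11, and 603 and 2706 at 2-fold or more. With KRT genes removed as well these were 1611, 7645, 618 and 2747. By construction, both change the total to which the other genes are scaled. A pseudocount of 5 left 605 genes higher and 357 lower at 2-fold or more, and a filter at 5 TPM left 2534 lower genes, with fewer genes tested. Without D3 libraries 4 and 7, 3510 genes differed between batches in their change. As a share of non-mitochondrial TPM, keratins differed by 0.681 points. The within-batch values of the shares were added after seeing the data. Other settings kept the counts of genes higher and lower within 1.5 times, and leaving out each library gave 3732 to 3974 higher and 3941 to 4352 lower.

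Directions turned with mitochondrial genes removed, and with KRT genes also removed, for PTTG1 (-0.28 and -0.26), CALR (-0.15 and -0.13), ATP5F1E (-0.24 and -0.23), NDUFA12 (-0.11 and -0.10), CSF1R (-0.33 and -0.31) and IL4R (-0.31 and -0.30), and for KRT14 with mitochondrial genes removed (-0.60). CALR also turned with quantile normalization (-0.22).

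Libraries of the groups share numbers, but same-numbered libraries did not deviate together, with correlations of -0.258 to 0.24, and none correlated best with its own number. With a replicate block on the numbers 1 to 7, 3271 genes were higher and 4139 lower, and 927 and 950 at 2-fold or more. Depth is unknown in TPM, so which low genes are limited by counting cannot be said.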
